A study of Mus musculus with 6 samples.

Results

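The tumour necrosis factor (TNF) superfamily, its receptors and the TRAF adaptors were followed in cells sorted as intercalated cells early after kidney ischemia. All genes whose symbol in the deposited RPKM table begins with Tnfrsf or Tnfsf, or is Tnf, Fas, Fasl or Traf1 to Traf7, were taken: 41 of 37583 gene identifiers, with 12 ligands, 22 receptors and 7 TRAFs. They carry 40 symbols, since Tnfrsf22 has 2 identifiers. Tnfsf12, the ligand of Tnfrsf12a, has no such row and was not analysed here. RNA was sequenced from EGFP-positive cells sorted in repeated rounds from the renal medulla of 12-week-old B1 VATPase EGFP transgenic mice. The 3 IRI samples were taken 2 h after renal ischemia reperfusion injury (IRI), in which blood flow is stopped and restored, and the 3 sham samples 2 h after a sham operation. Each sample pooled 4 kidneys of 2 mice. In these mice EGFP is described as marking intercalated cells through the B1 VATPase transgene, while the genotype entry also names CX3CR1 and the tissue entry reads epididymis. The labels do not say if pools of 1 group stem from separate experiments, and a p-value here covers the variation among pools, which may be technical.

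Ligands of this family are membrane proteins or their shed forms, and they bring receptor chains together on the target cell. Receptors with a cytoplasmic death domain can recruit FADD and caspase-8 and start cell death. Other receptors bind TRAF proteins directly and pass the signal to NF-kB and stress kinases. Decoy receptors bind a ligand without signalling. In the injured kidney, TNF and the ligand TWEAK, which binds the Tnfrsf12a product, are known for driving inflammation in tubule cells.

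The libraries held 22478011 to 24245330 reads counted in genes in IRI and 17421669 to 23061108 in sham. Intercalated cell markers were abundant, with a summed level of 20783 to 24624 CPM (TMM-scaled counts per 1e6 reads) in IRI and 19391 to 25095 CPM in sham. Principal cell markers were also high, at 5778 to 11373 CPM in IRI and 11562 to 12510 CPM in sham. Their sum was lower in every IRI library than in every sham library. Thick ascending limb markers summed to 594 to 1078 CPM in IRI and 664 to 1145 CPM in sham. The part of other tubule cells in the values below was not tested. The epididymis list was low, with 5 of 8 markers at 0 reads in all libraries. Of 13881 genes tested with edgeR's quasi-likelihood test, 24.2% were called higher in IRI and 21.2% lower, at a Benjamini-Hochberg adjusted p under 0.05. Higher genes were 53.3% of the calls as tested, 42% under upper-quartile scaling and 35.6% under library size alone, which shifted the log2 fold changes by a median of -0.12 and -0.20. CPM values below use TMM-scaled library sizes, mean ± SD covers n = 3 samples per group, log2 values are fitted fold changes of IRI over sham ± SE, and every adjusted p is from edgeR's quasi-likelihood test unless another tool is named. Of 7 tested intercalated cell markers 0 were higher and 1, Atp6v1b1, lower (log2 -0.37 ± 0.13, adjusted p = 0.0427). Of 5 tested principal cell markers 0 were higher and 1, Aqp3, lower (log2 -0.40 ± 0.12, adjusted p = 0.0273). These counts stand beside the 24.2% and 21.2% of all tested genes.

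The 250 bases before the start of 4 members that were called higher in IRI are shown. Tnfrsf12a (chr17:23677450-23677699, minus strand) and Tnfrsf1a (chr6:125349473-125349722, plus strand) had the most reads among the receptors that were called. Fas (chr19:34290409-34290658, plus strand) and Traf3 (chr12:111166120-111166369, plus strand) were the called members whose window held one of the motifs searched. The sequences are from RefSeq on GRCm38.p6, and capitals mark a motif match.
Tnfrsf12a: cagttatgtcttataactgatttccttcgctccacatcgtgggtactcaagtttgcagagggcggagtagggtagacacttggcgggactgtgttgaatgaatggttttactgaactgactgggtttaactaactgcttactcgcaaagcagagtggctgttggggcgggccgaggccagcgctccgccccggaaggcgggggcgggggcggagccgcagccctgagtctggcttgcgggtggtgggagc
Tnfrsf1a: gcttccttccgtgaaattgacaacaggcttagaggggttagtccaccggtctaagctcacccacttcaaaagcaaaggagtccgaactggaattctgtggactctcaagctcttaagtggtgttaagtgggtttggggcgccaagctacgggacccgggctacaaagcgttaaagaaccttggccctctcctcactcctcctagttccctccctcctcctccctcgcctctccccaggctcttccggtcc
Fas: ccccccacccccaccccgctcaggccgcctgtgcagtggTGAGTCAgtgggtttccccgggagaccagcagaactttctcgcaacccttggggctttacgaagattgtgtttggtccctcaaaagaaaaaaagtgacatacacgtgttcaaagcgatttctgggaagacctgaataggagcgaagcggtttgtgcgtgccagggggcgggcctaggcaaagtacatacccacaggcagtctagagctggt
Traf3: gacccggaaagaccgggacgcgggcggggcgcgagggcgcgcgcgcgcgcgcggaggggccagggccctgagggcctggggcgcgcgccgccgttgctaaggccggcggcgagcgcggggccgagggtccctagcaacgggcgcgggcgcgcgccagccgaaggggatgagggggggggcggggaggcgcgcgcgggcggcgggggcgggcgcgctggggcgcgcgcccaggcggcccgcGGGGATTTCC

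RefSeq windows were matched by symbol for 34 of the 40 member symbols and searched on both strands for the AP-1 motif TGANTCA, the cAMP response element TGACGTCA, the NF-kB motif and the SRF CArG box. Neither of these strings holds the other, and no matches of different motifs overlapped in the 4 windows shown. The AP-1 motif was in windows of 6 matched members, of which Fas was called, and in 6.75% of all 32851 promoter windows of this length. The NF-kB motif was in windows of 4 matched members, of which Traf3 was called, and in 7.25% of all windows. The cAMP response element was in 0 member windows and 1.55% of all, and the CArG box in 1 member window and 1.47% of all. Members were counted by symbol, some with more than 1 window, and the percentages by window, so the units differ. The called members Tnfrsf10b and Tnfrsf22 had no matched window and were not searched. A match describes these letters and is not a binding site, and no match says nothing of the factor.

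Of the 41 members, 22 had enough reads to be tested, and 14 of these were called higher in IRI and 0 lower, where 24.2% and 21.2% of all tested genes were. Tnfrsf11b was lower at an unadjusted p under 0.05, so that count is 1, and DESeq2 and limma-voom each called it lower. Members that reach the filter on low counts through IRI alone had to differ, so the count is also given for the 17 members that exceeded the filter's cutoff in all 3 sham libraries. Among those, 10 were higher, 0 lower and 7 without a call, where 23.4% of all such genes were higher and 22.9% lower. The other tested members exceeded the cutoff in fewer sham libraries: Tnfrsf1b and Tnfrsf22 in 0, Tnfrsf13c in 1, and Tnfrsf11a and Tnfrsf23 in 2. All 14 called members had every IRI library above every sham library, and Tnfrsf11b had every IRI library below, so groups did not overlap for 15 of 22 members. Over all tested genes groups did not overlap for 56.4%, with IRI above for 29.2% and below for 27.2%. Called members were 9 of 12 tested receptors, 4 of 7 TRAFs and 1 of 3 tested ligands. Counting members over the cutoff in all sham libraries, these were 5 of 7 receptors, 4 of 7 TRAFs and 1 of 3 ligands. With library size alone, 11 members were higher and 1, Tnfrsf11b, lower, where 17.3% of all tested genes were higher and 31.2% lower. With upper-quartile scaling 12 members were higher and 0 lower, where 19.8% and 27.3% of all tested genes were.

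**Figure D1:**
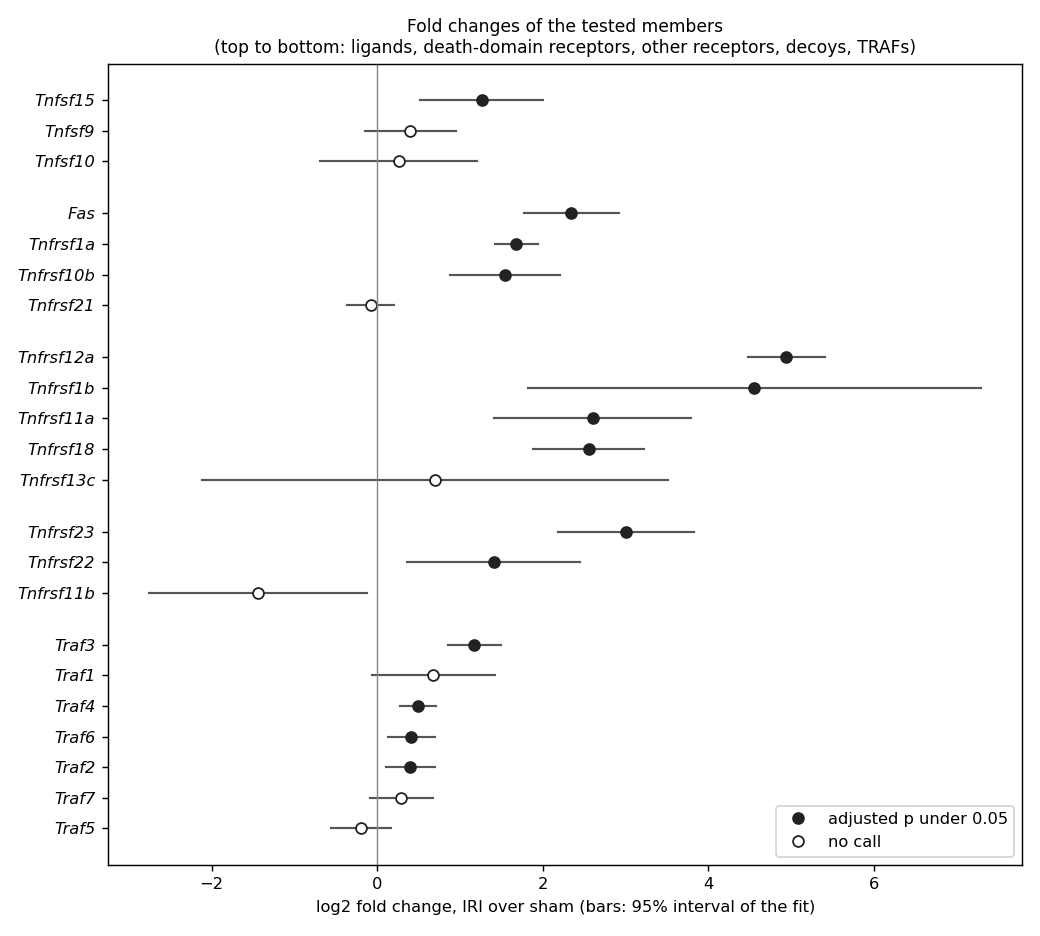
Log2 fold change, IRI over sham, on the horizontal axis for the 22 tested members, grouped by role, with 95% intervals of the fit; filled points have an adjusted p under 0.05. Tnfrsf12a stands farthest right at 4.94, and Tnfrsf11b, Traf5 and Tnfrsf21 have negative values without a call.

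Among ligands, transcripts were scarce. Tnf itself, the ligand that names the family, had 9, 45 and 33 reads in IRI replicates 1, 2 and 3, against 3, 5 and 2 reads in sham replicates 1, 2 and 3. In CPM every IRI library was above every sham library, and IRI replicate 1 was the nearest to sham. The ratio of summed counts was 9.07 (95% interval 4.70 to 19.6, which covers counting error only, as PCR copies are not independent molecules). Tnf missed the filter on low counts because IRI replicate 1 was below its cutoff. Without a filter it was called higher (log2 3.11, adjusted p = 0.000544).

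Fasl, the ligand of Fas, had 0, 1 and 0 reads in IRI libraries and 3, 1 and 0 in sham libraries. Tnfsf10, which encodes the death ligand TRAIL, stood at 6.42, 7.33 and 5.51 CPM in IRI, against 8.45, 5.32 and 2.23 CPM in sham. The groups overlapped and there was no call (log2 0.26 ± 0.41, 95% interval -0.70 to 1.21, adjusted p = 0.646). Its value was -0.14 without sham replicate 3, the lowest of the sham libraries.

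Tnfsf15, which encodes TL1A, the ligand of the death receptor DR3, was higher. It stood at 4.98, 5.59 and 3.53 CPM in IRI, against 2.63, 1.22 and 2.01 CPM in sham, and the groups did not overlap. The fold change was 2.40 (log2 1.26 ± 0.33, adjusted p = 0.0125), and without IRI replicate 2 the adjusted p was 0.0508. Reads of its receptor gene, Tnfrsf25, were few, at 3, 1 and 4 in IRI libraries and 9, 5 and 1 in sham libraries. Per gene length, Tnfsf9, which encodes the T cell costimulator 4-1BB ligand, led the ligands with 3.64 ± 0.855 RPKM in IRI and 2.83 ± 0.215 RPKM in sham. It had no call (log2 0.40 ± 0.24, 95% interval -0.15 to 0.95, adjusted p = 0.206), and IRI replicate 3 lay within the sham range.

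The other 7 ligand genes were at or near 0. Tnfsf11, which encodes the RANK ligand, and Tnfsf14 had 0 reads in all libraries, which allows up to 0.0227 CPM over all libraries at 3 reads. Tnfsf4, Tnfsf8 and Tnfsf18 had 1 read each, in an IRI library. Tnfsf13b, which encodes the B cell survival factor BAFF, had 9 reads in IRI and 12 in sham. Tnfsf13 had 3 reads in IRI and 5 in sham, and its value is uncertain because Tnfsfm13 and Tnfsf13os overlap it in the GRCm38 annotation.

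Tnfrsf12a, which encodes Fn14, a small receptor without a death domain that binds TRAFs and is known to be induced in growth and injury, had the highest fitted fold change and the most reads among tested members. It stood at 1450.1, 1739 and 2257 CPM in IRI replicates 1, 2 and 3, against 58.6, 67.2 and 51.4 CPM in sham replicates 1, 2 and 3. No IRI library came near a sham library. The fold change was 30.7 (log2 4.94 ± 0.20, adjusted p = 4.93e-06), and it ranged from 4.74 to 5.08 on the log2 scale over all alternatives tried. By mean RPKM the gene ranked 26 of 37583 identifiers in IRI and 1146 in sham.

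**Figure D2:**
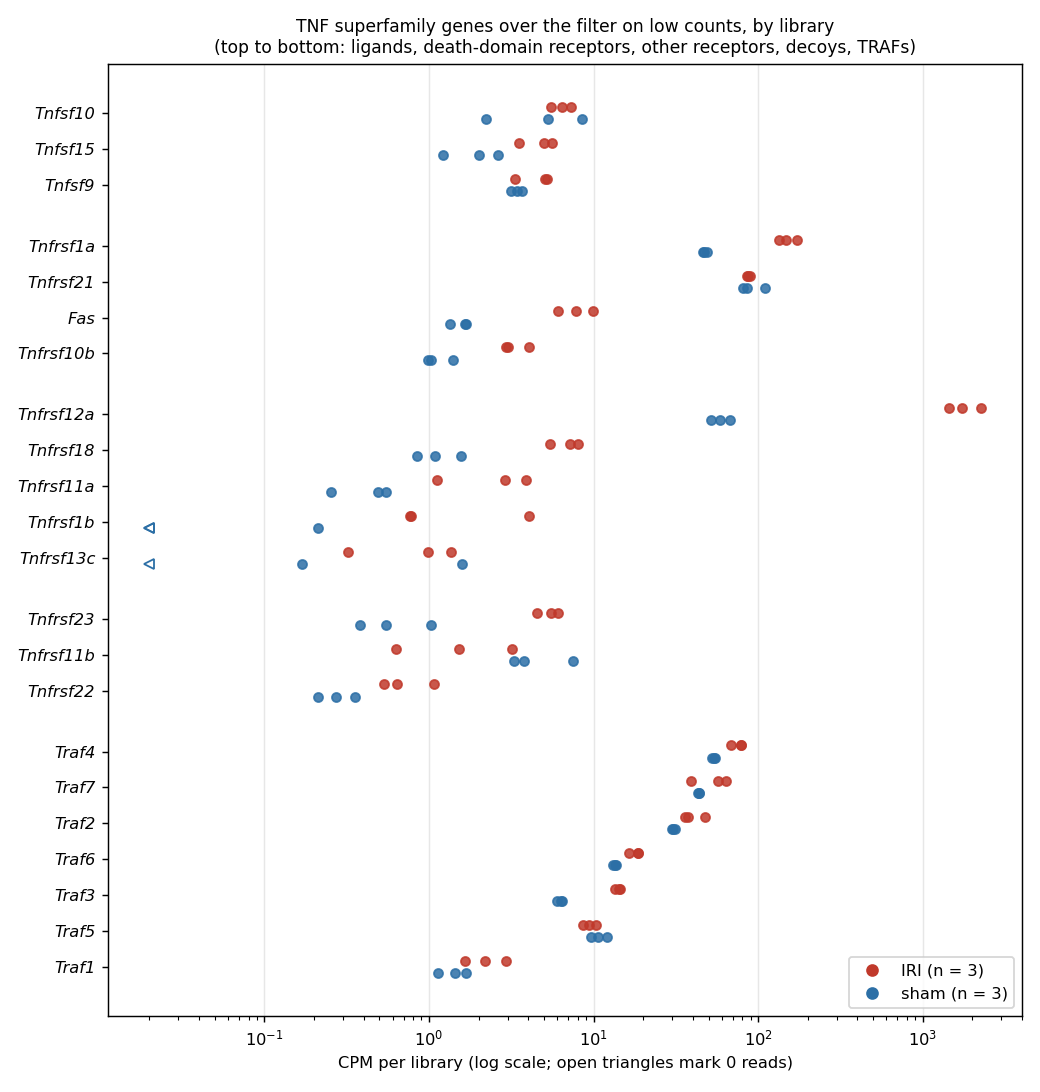
CPM of each library (log axis) for the 22 tested members, with IRI points (red, n = 3) drawn above sham points (blue, n = 3) in each row. Tnfrsf12a lies between 1450.1 and 2257 CPM in IRI and between 51.4 and 67.2 CPM in sham, and the open triangles for Tnfrsf1b and Tnfrsf13c mark sham libraries with 0 reads.

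Levels per gene length show how far this gene outweighed the other receptors taken by symbol. The sums leave out receptors with other names, such as the lymphotoxin beta receptor Ltbr. Ltbr stood at 37.6 ± 4.75 RPKM in IRI and 34.2 ± 1.83 RPKM in sham, so all shares would be smaller with it. In IRI libraries Tnfrsf12a made up 93.4%, 93.7% and 95.9% of the RPKM summed over all 22 receptor rows, against 51.4%, 59.0% and 51.0% in sham libraries. The sum was 1614, 1901 and 2405 RPKM in IRI and 120.3, 120.5 and 105.9 RPKM in sham. Without Tnfrsf12a the receptor sum was 106.03, 120.5 and 97.6 RPKM in IRI and 58.5, 49.4 and 51.9 RPKM in sham. Within a library, the RPKM ratio of Tnfrsf12a to Tnfrsf1a was 21.7, 22.1 and 37.3 in IRI, against 2.65, 3.14 and 2.45 in sham.

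**Figure D3:**
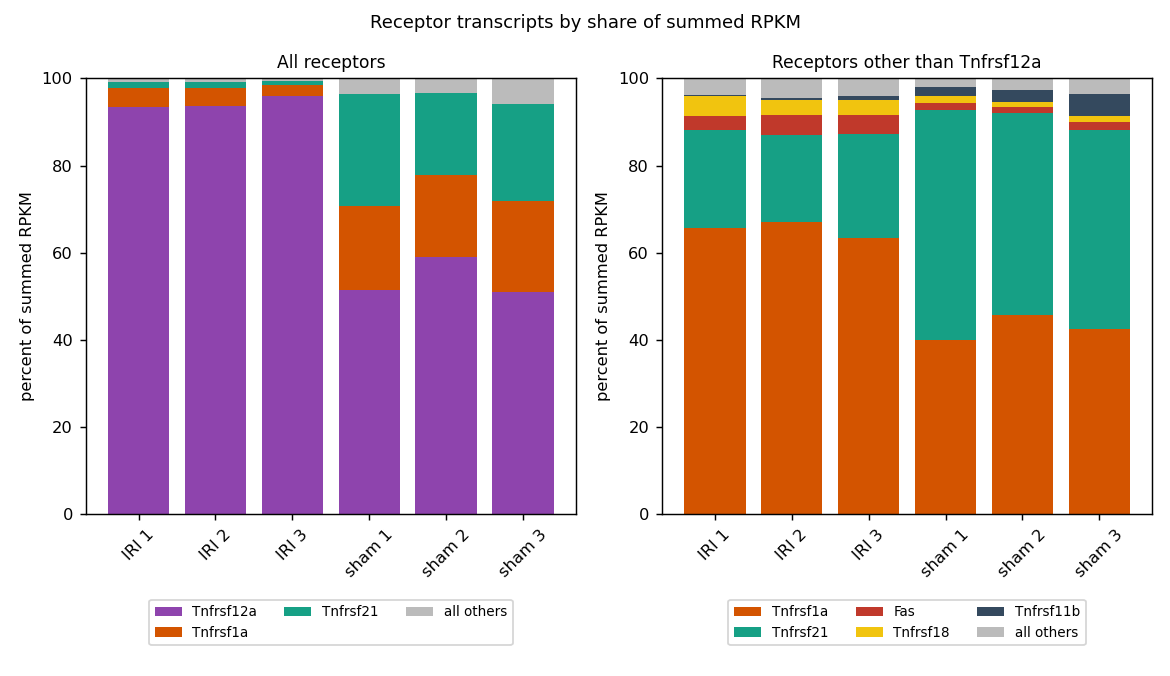
Share of summed RPKM (percent, from 0) of the leading receptors, with all others in grey, in each library, IRI left of sham, over all receptors taken by symbol (left panel) and over those other than Tnfrsf12a (right panel). Ltbr is not included. Tnfrsf12a takes 93.4% to 95.9% in IRI and 51.0% to 59.0% in sham; in the right panel Tnfrsf1a takes 63.4% to 67.0% in IRI and 39.9% to 45.8% in sham.

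Of the receptors with a death domain, Tnfrsf1a, Fas and Tnfrsf10b were higher in IRI and Tnfrsf21 had no call. Tnfrsf1a, the main receptor for TNF on epithelial cells, stood at 147, 173 and 133 CPM in IRI, against 48.6, 47.0 and 46.1 CPM in sham. The groups were far apart and the sham libraries lay close together. Its fold change was 3.20 (log2 1.68 ± 0.12, adjusted p = 1.86e-05).

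Fas, the receptor of the Fas ligand and a known p53 target, stood at 6.11, 9.94 and 7.78 CPM in IRI, against 1.65, 1.35 and 1.69 CPM in sham. It rose 5.08-fold with no overlap (log2 2.34 ± 0.25, adjusted p = 0.000151). Tnfrsf10b, the TRAIL receptor that carries a death domain in the mouse, was lower in level, at 3.01, 4.03 and 2.95 CPM in IRI and 0.982, 1.39 and 1.03 CPM in sham. Its fold change was 2.92 (log2 1.55 ± 0.29, adjusted p = 0.00276). The calls of Tnfrsf1a, Fas and Tnfrsf10b held under all alternatives tried.

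Tnfrsf21, which encodes death receptor 6, was one of the more abundant receptors and moved little. It stood at 87.3, 88.7 and 86.0 CPM in IRI, against 110.3, 81.2 and 85.2 CPM in sham. Sham replicate 1 was above all other libraries (log2 -0.08 ± 0.12, 95% interval -0.36 to 0.20, adjusted p = 0.636), and the value was 0.04 without it. Per gene length, Tnfrsf21 was at 23.8 ± 0.440 RPKM in IRI and 25.8 ± 4.41 RPKM in sham, beside 70.7 ± 9.46 and 22.7 ± 0.661 RPKM for Tnfrsf1a. These receptors therefore stood at similar RPKM in sham, while Tnfrsf1a was above Tnfrsf21 in each IRI library.

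Ratios within a library do not depend on how libraries are scaled, and 5 were computed on pairs chosen after their values were seen. The ratio of Tnfrsf1a to Tnfrsf21 was 2.89, 3.36 and 2.66 in IRI, against 0.757, 0.993 and 0.929 in sham, a log2 difference of 1.74. In all 5 pairs the groups did not overlap. An exact two-sided permutation test gave p = 0.1 for each pair and 0.1 after Benjamini-Hochberg adjustment over the 5 pairs, which is the smallest p that 3 against 3 samples allow, so this test cannot pass the threshold.

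**Figure D4:**
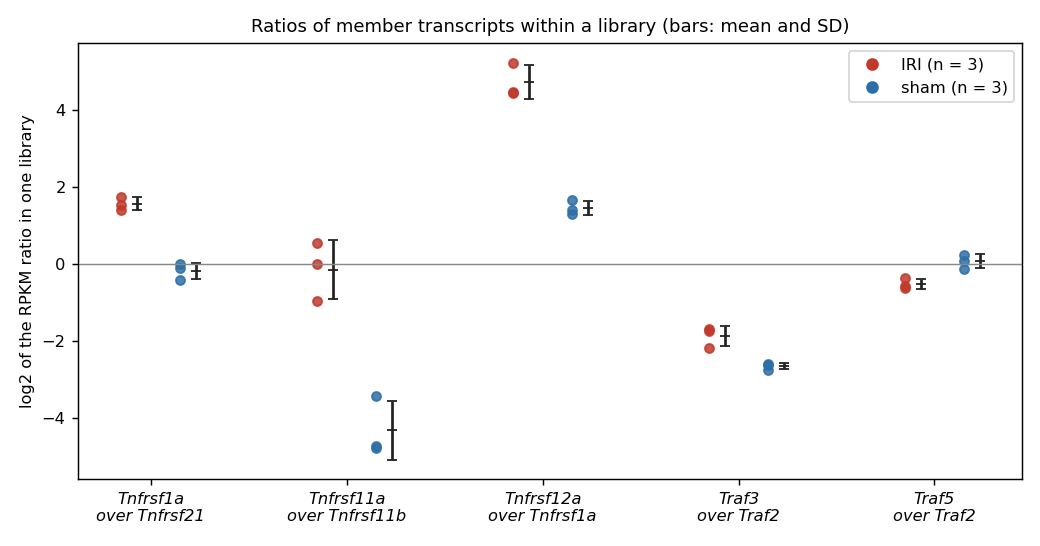
Log2 of the RPKM ratio of 2 members within each library (points), IRI left of sham, with mean and SD (bars, n = 3). Tnfrsf12a over Tnfrsf1a, Tnfrsf1a over Tnfrsf21, Tnfrsf11a over Tnfrsf11b and Traf3 over Traf2 lie higher in each IRI library, and Traf5 over Traf2 lies lower.

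Tnfrsf18 and Tnfrsf11a, receptors without a death domain, were higher at low levels. Tnfrsf18, known as GITR on T cells, stood at 8.08, 7.19 and 5.46 CPM in IRI, against 1.57, 0.844 and 1.09 CPM in sham (log2 2.55 ± 0.30, adjusted p = 0.000218). All IRI libraries lay above all sham libraries. The T and NK cell markers summed to 2.11, 3.44 and 9.66 CPM in IRI and 2.08, 3.75 and 18.2 CPM in sham. In IRI replicate 3 and sham replicate 3 most of that sum was Cd8a, which had 1, 35 and 108 reads in IRI and 28, 37 and 289 in sham, while Cd3e had 0, 4 and 6 reads in IRI and 0, 1 and 2 in sham. The part of T cells in the Tnfrsf18 values was not tested. A gene on the opposite strand, Gm16008, overlaps Tnfrsf18 in the GRCm38 annotation, and counting ignored strand.

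Tnfrsf11a encodes RANK and Tnfrsf11b encodes osteoprotegerin, the soluble decoy for the RANK ligand. Tnfrsf11a stood at 1.12, 3.90 and 2.90 CPM in IRI, against 0.550, 0.253 and 0.489 CPM in sham (log2 2.60 ± 0.53, adjusted p = 0.00386). Tnfrsf11b stood at 0.629, 1.51 and 3.19 CPM in IRI, against 3.30, 3.75 and 7.45 CPM in sham. Although the groups did not overlap, Tnfrsf11b missed the threshold (log2 -1.44 ± 0.57, 95% interval -2.75 to -0.13, adjusted p = 0.0711); without IRI replicate 3, the highest of that group, it was called lower (log2 -2.16, adjusted p = 0.0131). Within a library, the RPKM ratio of Tnfrsf11a to Tnfrsf11b was 1.00, 1.45 and 0.510 in IRI, against 0.0935, 0.0378 and 0.0369 in sham. In each IRI library the 2 transcripts were thus nearer to each other than in any sham library.

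Tnfrsf1b, the TNF receptor of leukocytes and endothelium, had 17, 88 and 16 reads in IRI libraries, against 0, 5 and 0 reads in sham libraries. The ratio of summed counts was 25.2 (95% counting interval 10.5 to 79.1). It was called higher (adjusted p = 0.0158), but not without sham replicate 3 (adjusted p = 0.0517). It exceeded the cutoff of the filter on low counts in 3 IRI and 0 sham libraries. Tnfrsf1b was thus tested only because it was high in IRI, which limits the call. IRI replicate 2 held most of the reads: the fitted log2 value was 4.56 ± 1.17 with it and 3.27 without it. The fit gave 3.91 without sham replicate 1 and 8.34 without sham replicate 2, the sham library that held all 5 reads, so the fitted size is uncertain. In bulk samples like these, more cells of a type and more RNA per cell cannot be told apart.

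Of 13 macrophage and dendritic cell markers, 9 were tested. Of these, 4 (Cd68, Cd14, Lyz2 and Ptprc) were higher and 0 lower, where 24.2% and 21.2% of all tested genes were. The list summed to 203 to 306 CPM in IRI and 64.7 to 263 CPM in sham. IRI replicate 2, highest for Tnf and Tnfrsf1b, was also highest for Cd68, with 701, 1177 and 575 reads in IRI replicates 1, 2 and 3 and 14, 28 and 18 in sham replicates 1, 2 and 3. The other called markers were not highest in IRI replicate 2. In IRI replicates 1, 2 and 3, Cd14 had 877, 795 and 460 reads, Lyz2 56, 22 and 37, and Ptprc 376, 354 and 397. Most of the list's sum came from Cd74, which had no call and stood at 110, 134 and 231 CPM in IRI, against 38.6, 82.9 and 239 CPM in sham. Cx3cr1 had 1 read in IRI and 1 in sham. Emr1, below the filter, had 0, 5 and 2 reads in IRI, against 2, 0 and 0 in sham. Itgam, also below the filter, had 10, 4 and 13 reads in IRI, against 1, 2 and 0 in sham. Tyrobp had 19, 17 and 18 reads in IRI, against 14, 0 and 13 in sham, without a call. Csf1r, C1qa and C1qb also had no call, and among IRI libraries each was highest in IRI replicate 2. Csf1r had 11, 21 and 11 reads in IRI, against 20, 8 and 9 in sham. C1qa had 8, 14 and 10 in IRI, against 16, 0 and 14 in sham. C1qb had 15, 28 and 14 in IRI, against 50, 0 and 9 in sham. The neutrophil list summed to 0 to 3.73 CPM in IRI and 0 to 0.118 CPM in sham. The endothelial cell list summed to 14.4, 5.64 and 7.25 CPM in IRI, against 0.511, 3.97 and 5.55 CPM in sham. Every IRI library was above every sham library, and IRI replicate 2 was the lowest of the IRI group. Of its 3 tested markers 0 were higher and 0 lower, where 24.2% and 21.2% of all tested genes were. Most of the sum was Plvap (adjusted p = 0.103). The part of these cells in the Tnf and Tnfrsf1b values was not tested.

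Tnfrsf13b and Tnfrsf13c, the receptors TACI and BAFF-R of B cells, varied within groups rather than between them. Tnfrsf13b, below the filter, had 3, 1 and 9 reads in IRI, against 0, 9 and 24 in sham. Tnfrsf13c had 22, 7 and 28 reads in IRI, against 0, 4 and 29 in sham, with no call (log2 0.70 ± 1.19, adjusted p = 0.668). The 4 B cell markers, all tested and without a call, summed to 7.01, 8.29 and 26.2 CPM in IRI and 2.28, 17.7 and 48.7 CPM in sham. Sham replicate 1, with 0 reads of both receptors, had the lowest sum and sham replicate 3 the highest. Without sham replicate 3, Tnfrsf13c was called higher (log2 3.31, adjusted p = 0.0423), and the part of B cells in these values was not tested.

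Tnfrsf22, Tnfrsf23 and Tnfrsf26 are neighbouring mouse genes, the first pair known as decoy receptors for TRAIL. As near copies they can lose or share reads, and all overlap E230032D23Rik on the opposite strand in the GRCm38 annotation, so their values are uncertain. Tnfrsf23 stood at 6.06, 5.54 and 4.54 CPM in IRI, against 1.02, 0.548 and 0.381 CPM in sham, without overlap (log2 3.01 ± 0.36, adjusted p = 0.00027). Tnfrsf22 exceeded the cutoff of the filter on low counts in 0 sham libraries, so it was tested only through IRI. It had 24, 14 and 11 reads in IRI and 9, 5 and 5 in sham (log2 1.41 ± 0.46, adjusted p = 0.0339), and lost its call without any one of the libraries except IRI replicate 3 (adjusted p up to 0.136). The call was also lost with library size alone (adjusted p = 0.0623), with no filter (0.0789) and with DESeq2 (0.108). Its other identifier was at 0. Tnfrsf26 had 8 reads in IRI and 7 in sham.

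The remaining receptors were below the filter. Tnfrsf19, known as TROY, had 6, 7 and 8 reads in IRI, against 0, 1 and 0 in sham, a ratio of 21.9 with a wide counting interval (3.52 to 905). Tnfrsf4 and Tnfrsf9, the T cell costimulators OX40 and 4-1BB, had 35 and 22 reads in IRI and 16 and 18 in sham, and the libraries of the groups overlapped for both. Tnfrsf14 had 6 reads in IRI and 2 in sham, and Tnfrsf8 and Tnfrsf17 had 0 in all libraries.

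All 7 TRAFs were tested, and Traf2, Traf3, Traf4 and Traf6 were higher. Traf3, which restrains the NF-kB-inducing kinase, differed most. It stood at 13.6, 14.5 and 14.3 CPM in IRI, against 6.44, 6.03 and 6.31 CPM in sham (log2 1.17 ± 0.14, adjusted p = 0.000264). Libraries of a group lay close together and the groups far apart. The call held under all alternatives tried, and the RPKM ratio of Traf3 to Traf2 was 0.222, 0.299 and 0.311 in IRI, against 0.165, 0.149 and 0.164 in sham. 4930595D18Rik overlaps Traf3 on the opposite strand in the GRCm38 annotation.

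Traf4, with the highest RPKM of the TRAFs, stood at 78.7, 78.8 and 68.7 CPM in IRI, against 54.6, 52.5 and 54.1 CPM in sham (log2 0.49 ± 0.10, adjusted p = 0.00344). It kept its call under each alternative (adjusted p up to 0.0499). Traf2, the adaptor that carries signals of the TNF receptors to stress kinases, stood at 47.5, 37.5 and 35.7 CPM in IRI, against 30.4, 31.3 and 29.8 CPM in sham. Traf6, which also serves the interleukin 1 and Toll-like receptors, stood at 18.6, 16.5 and 18.6 CPM in IRI, against 13.8, 13.5 and 13.1 CPM in sham. The log2 values were 0.40 ± 0.13 for Traf2 and 0.41 ± 0.13 for Traf6 (adjusted p = 0.0328 and 0.0263). Both calls were lost under upper-quartile scaling (log2 0.28 and 0.29), under library size alone (log2 0.21 for both) and in 5 of the 6 fits without 1 library. Traf3 and Traf4 were called higher under all of these scalings.

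Traf1, Traf5 and Traf7 had no call. Traf1, itself an NF-kB target, stood at 1.66, 2.20 and 2.95 CPM in IRI, against 1.14, 1.43 and 1.69 CPM in sham (log2 0.68 ± 0.33, adjusted p = 0.119). Traf5 stood at 10.4, 8.57 and 9.32 CPM in IRI, against 12.1, 9.66 and 10.7 CPM in sham (log2 -0.20 ± 0.16, adjusted p = 0.345). Traf7 was at 64.1, 56.8 and 39.3 CPM in IRI and 44.0, 43.0 and 43.9 CPM in sham; IRI replicate 3 was below sham, and without it Traf7 was called higher (log2 0.47, adjusted p = 0.00902). The RPKM ratio of Traf5 to Traf2 was 0.650, 0.679 and 0.776 in IRI, against 1.18, 0.917 and 1.06 in sham.

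**Figure D5:**
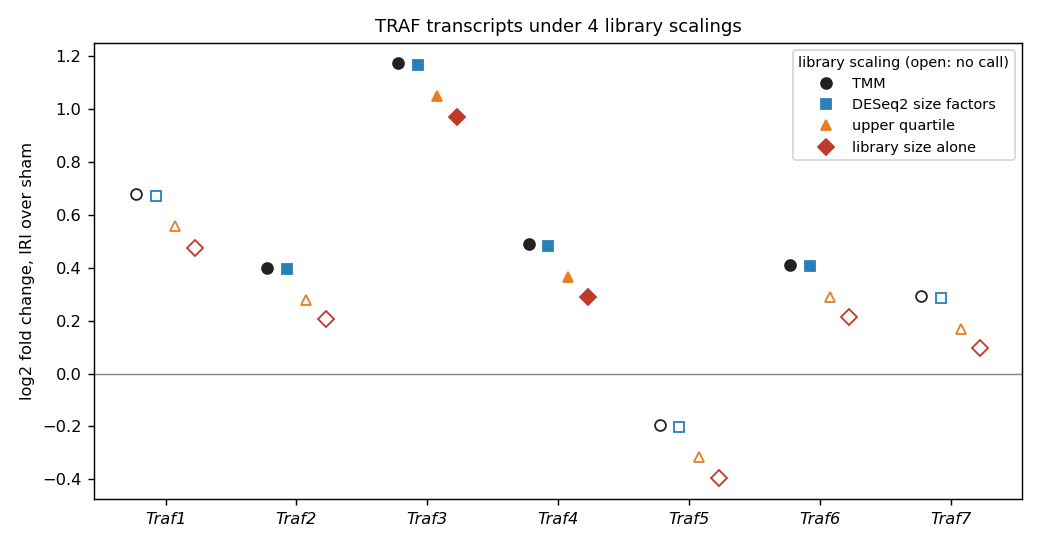
Log2 fold change of IRI over sham (vertical axis) for the 7 TRAFs under 4 library scalings; filled symbols have an adjusted p under 0.05. Traf3 and Traf4 are filled under each scaling, and Traf2 and Traf6 are open at 0.28 and 0.29 for the upper quartile and at 0.21 for library size alone.

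Genes that act with these receptors were taken from 4 lists. Of 54 tested genes in them, 29 were higher and 3 lower, where 24.2% of all tested genes were higher and 21.2% lower. With library size alone 21 were higher and 8 lower, where 17.3% of all tested genes were higher and 31.2% lower. Under upper-quartile scaling 25 were higher and 6 lower, where 19.8% and 27.3% of all tested genes were. Family members named outside the rule had 1 of 5 tested genes higher and 0 lower. The lower count was also 0 by unadjusted p under 0.05, by DESeq2 and by limma-voom. That gene was Eda2r, a receptor of ectodysplasin, at 2.80 ± 0.826 CPM in IRI and 0.507 ± 0.260 CPM in sham (log2 2.42 ± 0.43, adjusted p = 0.00205). The lymphotoxin beta receptor Ltbr had 89.4 ± 10.7 CPM in IRI and 79.1 ± 3.94 CPM in sham (log2 0.18 ± 0.11, adjusted p = 0.227), and Cd27 was at 1.71 ± 0.401 CPM in IRI and 1.75 ± 0.437 CPM in sham.

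Receptor complex and death signalling genes had 11 of 20 tested members higher and 2 lower, against the same 24.2% and 21.2% of all tested genes. With library size alone 8 were higher and 2 lower, and under upper-quartile scaling 9 and 2. The necroptosis kinase Ripk3 rose 9.12-fold, with 31.1 ± 8.88 CPM in IRI and 3.41 ± 0.676 CPM in sham (log2 3.19 ± 0.26, adjusted p = 4.88e-05). Birc3, a ubiquitin ligase that binds TRAF2, stood at 57.1 ± 8.20 CPM in IRI and 12.2 ± 1.66 CPM in sham (adjusted p = 1.86e-05). Tnfaip3, the NF-kB inhibitor A20, stood at 21.7 ± 6.65 CPM in IRI and 3.28 ± 0.371 CPM in sham (adjusted p = 5.74e-05). The lower genes, named after their values were seen, were Fadd, the adaptor of the death domain (log2 -0.59 ± 0.19, adjusted p = 0.0281), and Rbck1, a part of the linear ubiquitin ligase (log2 -0.33 ± 0.11, adjusted p = 0.0392). The adaptor Tradd (log2 0.19 ± 0.13, adjusted p = 0.267) and Sharpin (0.04 ± 0.11, adjusted p = 0.802) had no call.

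In the kinase and NF-kB arms, 12 of 20 tested genes were higher and 0 lower, beside 24.2% and 21.2% of all tested genes. With library size alone 9 were higher and 3 lower, and under upper-quartile scaling 11 and 2. DESeq2 and limma-voom also called 0 lower, and by unadjusted p under 0.05 the count was 1. Map3k14, which encodes the NF-kB-inducing kinase that Traf3 restrains, stood at 16.8 ± 0.443 CPM in IRI and 4.01 ± 0.776 CPM in sham (log2 2.06 ± 0.18, adjusted p = 5.12e-05). Relb, its downstream NF-kB subunit, stood at 81.2 ± 24.9 CPM in IRI and 9.08 ± 0.838 CPM in sham (adjusted p = 2.87e-05). The stress kinase kinase Map2k4 (log2 1.75 ± 0.12, adjusted p = 2.02e-05) and the NF-kB subunit Rela (log2 1.97 ± 0.18, adjusted p = 9.73e-05) rose as well. Chuk, an I kappa B kinase, stood at 136 ± 1.79 CPM in IRI and 119.7 ± 3.60 CPM in sham and Mapk9, a JNK kinase, at 40.2 ± 4.56 CPM in IRI and 49.6 ± 2.90 CPM in sham, both without a call (adjusted p = 0.095 and 0.0586). Mapk9 was called lower under 4 alternatives, among them upper-quartile scaling (adjusted p = 0.0146), library size alone (0.0144) and the fit without IRI replicate 1 (0.0222).

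Of 9 tested sheddases and TRAF-binding regulators, 5 were higher and 1, Siva1, lower, beside 24.2% and 21.2% of all tested genes. With library size alone 3 were higher and 3 lower, and under upper-quartile scaling 4 and 2. Rhbdf1 and Rhbdf2 encode the inactive rhomboids that carry the TNF-shedding protease ADAM17 to the cell surface. Rhbdf1 rose 7.31-fold, with 213 ± 57.6 CPM in IRI and 29.1 ± 3.22 CPM in sham (adjusted p = 2.72e-05), and Rhbdf2 3.57-fold, with 20.9 ± 2.19 CPM in IRI and 5.84 ± 0.982 CPM in sham (adjusted p = 7.32e-05). Tnip2, a partner of A20, rose too (log2 1.48 ± 0.13, adjusted p = 5.02e-05). Siva1, which binds CD27 and GITR, stood at 15.9 ± 0.750 CPM in IRI and 33.5 ± 5.95 CPM in sham (log2 -1.08 ± 0.15, adjusted p = 0.000594). Tnfaip8 (log2 -0.36 ± 0.16, adjusted p = 0.0891) and Tifa (-0.27 ± 0.31, adjusted p = 0.507) had no call. Tnfaip8 was called lower under 5 alternatives, among them upper-quartile scaling (adjusted p = 0.0342), library size alone (0.0142) and the fits without IRI replicate 3 (0.0434) or sham replicate 3 (0.0441). Tifa was called lower without IRI replicate 2 (log2 -0.72, adjusted p = 0.0192).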

How the data were processed

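The authors deposited a table of raw counts for each sample and 1 RPKM table, which gives symbols and lengths per the file headers. Per the submitters' processing notes, STAR, HTSeq and edgeR were used with mm9; their roles and versions, and the gene annotation, were not stated. The names of the deposited count tables mark them as not stranded. Beside the overlaps named above, the GRCm38 annotation has other genes that overlap Fas, Traf5 and Traf7 on the same strand. It also has genes on the opposite strand that overlap Tnfrsf9, Tnfrsf13b, Tnfrsf19, Tnfsf9, Tnfsf13b, Traf2, Traf5 and Traf7. Values of these members, and ratios that use them, carry the same limit. Per gene, the RPKM equalled the deposited count over length and an effective library size, so the units are not independent. The 5 closing HTSeq entries were dropped from totals and tests; genes held 49.1% to 50.7% of recorded reads. No library was a copy of another: within groups, chi-square over degrees of freedom was 16.9 to 46.3.

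The main test was edgeR 4.0.16 under R 4.3.3 (filterByExpr, TMM, robust quasi-likelihood fit, group as its term, 6 samples), with Benjamini-Hochberg adjustment over 13881 genes. Its biological coefficient of variation was 19%, and each SE was derived from the F statistic. Steps were tested on simulated data. Alternatives were 3 other scalings, 2 other filters, DESeq2 1.42.0, limma-voom 3.58.1, a replicate block and each library left out. RPKM served levels between genes and ratios, untransformed or on the log2 scale without a pseudocount. Members and gene lists were chosen with earlier results of these data known. Each called member, Tnf, Fasl and Tnfsf10 are given by sample; in each pathway list up to 4 called genes by p and 2 others by level are named. A gene that this rule names is not reported here.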

Additional observations from a re-analysis of the deposited data

How the results depend on the processing

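In the alternatives, 14 in number, that could test them, 12 of 22 tested members kept their direction and side of the threshold. Between 11 and 14 members were higher and 0 to 1 lower. Over all tested genes, 14.1% (no filter) to 25.7% (stricter filter) were higher. From 13.4% (no filter) to 31.2% (library size alone) were lower. The member called lower was Tnfrsf11b, so the count was 1 with library size alone, DESeq2, limma-voom and the replicate block, and 0 to 1 without single libraries. Pathway genes called lower numbered 6 under upper-quartile scaling, 8 under library size alone and 1 to 3 without single libraries, where higher ones numbered 23 to 28. Values without a call that changed sign when single libraries were left out were Tnfsf10 (log2 -0.14 to 0.72, negative without sham replicate 3), Tnfrsf21 (-0.17 to 0.043, positive without sham replicate 1), Cd27 (-0.19 to 0.15, positive without IRI replicate 1 or sham replicate 1) and Sharpin (-0.034 to 0.11, negative without IRI replicates 1 or 2 or sham replicate 3). With library size alone, Ltbr (-0.022), Tradd (-0.0056), Chuk (-0.012) and Sharpin (-0.16) turned negative, as did Sharpin under upper-quartile scaling (-0.085). The cause was not tested. Tnf had no value in the main test; where alternatives tested it, its log2 value was 2.96 to 3.59 and its adjusted p up to 0.0266. All of those fits kept IRI replicates 2 and 3, which held 45 and 33 of its reads. The fits without either of them did not test Tnf, so the range does not show how far it rests on these libraries. Same-numbered libraries had correlations of 0.18, 0.10 and 0.18 in their deviations from the group means, and every library correlated best with its own number, a hint from the data only. With the replicate block, 14 members were higher and 1 lower, against 14 and 0 without it, and Tnfrsf11b had a log2 value of -1.58 (adjusted p = 0.00583). Genes with a few reads per library, such as Tnf, Tnfrsf1b and Tnfrsf22, are limited by depth: 1 read was 0.0393 to 0.0544 CPM.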
